A study of Cenchrus purpureus with 8 samples.

Results

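The RNA of young stem was compared between the libraries of 3 napiergrass entries, BAGCE_5, BAGCE_7 and BAGCE_Pioneiro, and those of the 5 other entries of the series, BAGCE_10, BAGCE_32, BAGCE_82, BAGCE_96 and BAGCE_98. The sets, called here the set of 3 and the set of 5, hold all 8 libraries, 1 per entry. They were not set by the study. The 3 libraries were chosen by their Spearman rank correlations with each other and with the rest, over these same counts, so every locus took part in drawing the line. The differences below are therefore descriptions of size and of consistency, and p-values from the fits describe size against spread and test nothing. The study picked entries for forage quality and lignin, and labelled each high or low. BAGCE_5 and BAGCE_Pioneiro carry the high lignin label and BAGCE_7 the low lignin label, while BAGCE_10 and BAGCE_82 are labelled high and BAGCE_32, BAGCE_96 and BAGCE_98 low. All 8 were sampled at the highest nodes of the stem in a germplasm bank, with no treatment given other than the lignin label, no repeat of an entry, and no age or batch in the labels. A difference between entries and the spread of repeat samples of 1 entry therefore cannot be told apart.

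Napiergrass (Cenchrus purpureus, also called elephant grass) is a tall perennial forage and biomass grass that is propagated by stem cuttings. The plant is polyploid and outcrossing, so accessions of a germplasm bank can differ at many loci. At the top of the stem, dividing and elongating cells lie above tissue in which xylem vessels and fibres begin to lay down cellulose, xylan and lignin in their secondary walls. An RNA library of this tissue thus mixes cells of several types, and fewer cells of a type cannot be told apart from less RNA per cell. The files identify each assembled transcript only by a number and pair none with a gene name, so neither cell type markers nor lignin genes could be looked up, and the tissue could not be checked against markers. Loci are described here by their values, and 4 of them by their identifiers.

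The transcripts drew 16923455 to 17997520 reads in each library of the set of 3, against 14925391 to 17844473 in the set of 5. Counts of the transcripts of a locus were summed, which gave 66981 loci, of which 50450 passed the filter on low counts. At least 1 read was found at 53653 loci in BAGCE_5, 59345 in BAGCE_7 and 60185 in BAGCE_Pioneiro, against 57602 to 59682 in the set of 5. BAGCE_5 was the deepest library and had the fewest loci with a read.

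The correlations that chose the sets are given here over the 50450 loci. Within the set of 3, rho was 0.842 between BAGCE_7 and BAGCE_Pioneiro, 0.809 between BAGCE_5 and BAGCE_Pioneiro, and 0.801 between BAGCE_5 and BAGCE_7, a mean of 0.818. The 10 pairs within the set of 5 ran from 0.733 to 0.867, with a mean of 0.811. The 15 pairs between the sets ran from 0.622 to 0.829, with a mean of 0.740. The ranges within and between the sets thus overlapped, and the set of 5 held a pair, BAGCE_10 and BAGCE_32, that was less alike than the mean pair between the sets. Every pair shares 1 set of assembled transcripts, and depths ran from 14925391 to 17997520 reads.

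**Figure D1:**
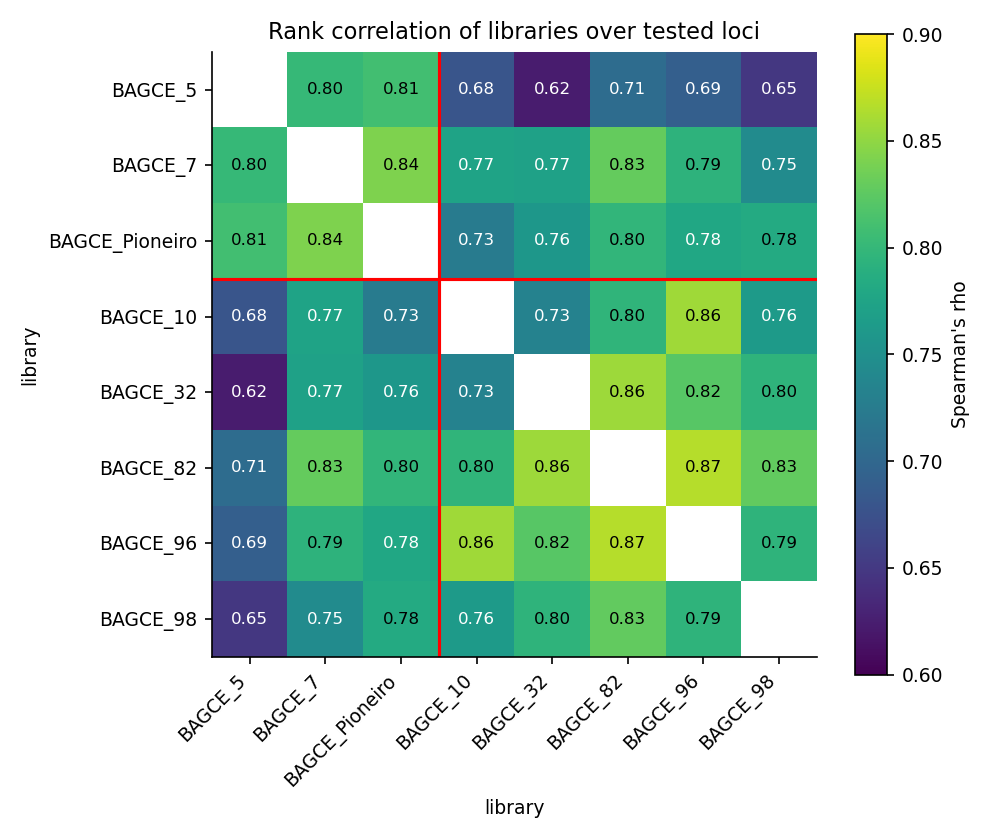
Spearman's rho between each pair of the 8 libraries over the 50450 tested loci, with colour and number giving rho and the red lines dividing the set of 3 (left and top) from the set of 5. BAGCE_5 lies at 0.622 to 0.706 with the set of 5, whereas BAGCE_7 reaches 0.829 with BAGCE_82.

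The members of the set of 3 stood apart from the set of 5 to unequal degrees. BAGCE_5 had a mean rho of 0.805 with the other members of its set and 0.669 with the set of 5, a difference of 0.136. For BAGCE_Pioneiro the corresponding means were 0.826 and 0.769, and for BAGCE_7 they were 0.822 and 0.783, a difference of only 0.0389. The nearest library to BAGCE_7 was BAGCE_Pioneiro, but BAGCE_82, at 0.829, was nearer to it than BAGCE_5. For BAGCE_5 and BAGCE_Pioneiro no library of the set of 5 was nearer than the farthest member of their own set. BAGCE_82 was also the library of the set of 5 most like BAGCE_5, at 0.706, and most like BAGCE_Pioneiro, at 0.798.

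Without BAGCE_5, refitted over 53810 loci, the remaining pair BAGCE_7 and BAGCE_Pioneiro correlated at 0.848, against a mean of 0.782 over the 10 pairs between the sets. That difference, 0.0652, was close to the 0.0772 of all 8 libraries. It rests on 1 pair, however, and the highest of the 10 pairs between the sets reached 0.833. The excess of the set of 5 over the pairs between the sets depended more on BAGCE_5: it was 0.0710 with all libraries and 0.0301 without BAGCE_5. When only the 30703 loci with at least 10 reads in all 8 libraries were kept, so that loci silent in an entry played no part, the set of 3 still exceeded the pairs between the sets by 0.0632.

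Measured as differences in level, BAGCE_7 and BAGCE_Pioneiro were closer to each other than any pair across the line, whereas BAGCE_5 was farther from both. The level used is CPM, reads per 1000000 assigned reads after TMM scaling. The median locus differed by 0.671 in log2 CPM between BAGCE_7 and BAGCE_Pioneiro, by 0.800 between BAGCE_5 and BAGCE_Pioneiro and by 0.843 between BAGCE_5 and BAGCE_7. Of the 15 pairs across the line, 0 were closer than the first of these pairs and 5 were closer than either pair with BAGCE_5. Among them, BAGCE_7 and BAGCE_82 differed by 0.713, while BAGCE_10 and BAGCE_32, both of the set of 5, differed by 0.958. BAGCE_5 differed by 1.03 to 1.23 from each library of the set of 5. The share of loci at least 2-fold apart was 34.6% between BAGCE_7 and BAGCE_Pioneiro, 57.9% between BAGCE_5 and BAGCE_32, and 28.3% between BAGCE_82 and BAGCE_96, the most similar pair. The median SD of log2 CPM over libraries was 0.683 in the set of 3 (n = 3) and 0.726 in the set of 5 (n = 5), and 0.474 in the set of 3 without BAGCE_5 (n = 2). Medians of SDs over such small and unequal n are only roughly comparable.

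Locus by locus, the set of 3 lay wholly above the set of 5 at 3052 loci and wholly below it at 4531. That is 7583 loci, or 15% of the 50450 tested, 6.05% above and 8.98% below. With edgeR's quasi-likelihood test, 0 loci reached a Benjamini-Hochberg adjusted p under 0.05, the lowest value being 0.0905. Without adjustment, 10301 loci (20.4%) had p under 0.05, 4272 higher and 6029 lower, a number that the choice of the sets on these counts raises. Limma-voom also called 0 loci at an adjusted p under 0.05, with 9314 at an unadjusted p under 0.05. DESeq2 called 6377 (12.6%), 2419 higher and 3958 lower in the set of 3. Of DESeq2's loci, 76.9% also had sides that did not overlap, and 64.7% of the loci with sides apart were among DESeq2's. The number of loci past a threshold thus ran from 0 to 6377 with the tool.

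The balance between higher and lower moved with scaling, with the filter and with the unit counted. Of the loci with sides apart, 40.2% were higher in the set of 3 under TMM, 43.8% under RLE, 44.4% under upper-quartile scaling and 49.5% under TMM with BAGCE_82 as the scaling library. With scaling computed again, the share was 49.8% with no filter and 40.5% with a filter of at least 1 CPM in 3 libraries. It was 49.6% among single transcripts and 40.4% for the most abundant transcript of each locus. With 1 library left out and the loci and scaling kept, the share ran from 37.8% without BAGCE_10 to 45.1% without BAGCE_7. It was 42.9% without BAGCE_5. In refits, which filter and scale again over the 7 remaining libraries, it ran from 40.4% to 53.2%, and it was over 50% without BAGCE_5 (52.9%), BAGCE_7 (53.2%) and BAGCE_96 (51.4%). The median log2 fold change over all tested loci, set of 3 over set of 5, was -0.09 under TMM and -0.01 with BAGCE_82 as the scaling library.

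Where the sides did not overlap, the differences were mostly over 2-fold. Such loci were chosen for a difference, so larger changes than over all tested loci follow from that choice. The median log2 fold change was 1.56 for the loci higher in the set of 3 and -2.0 for those lower, with median standard errors of 0.46 and 0.61. The median absolute log2 fold change over all tested loci was 0.68. A change of at least 2-fold was found at 77.7% of the higher and 83.8% of the lower loci, beside 35.2% of all loci tested. A change of at least 8-fold was found at 288 higher loci (9.44%) and 1154 lower loci (25.5%), beside 5.23% of all loci tested. The sides often came close: the gap between the nearest libraries of the sets had a median of 0.32 in log2 CPM at the higher loci and 0.41 at the lower ones. It reached 1 at 370 higher and 884 lower loci, and 2 at 25 and 140.

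Among loci with at least 10 reads in all 8 libraries, 4515 of 30703 (14.7%) had sides that did not overlap, close to the share over all tested loci. Of the 3052 higher loci 2153 had such reads throughout, and of the 4531 lower loci 2362. Only 60 of the lower loci had no read in any library of the set of 3, and only 3 of the higher loci had none in the set of 5.

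Values of 4 loci show such differences library by library. They are the pair in each direction with the largest log2 fold change fitted without BAGCE_5, among 1627 higher and 1680 lower candidates with at least 10 reads in every library, a mean log2 CPM of at least 2, sides apart and BAGCE_5 not the member nearest to the set of 5. MSTRG.45863, with 1 transcript of 1043 bases, had 137, 21.8 and 67.5 CPM in BAGCE_5, BAGCE_7 and BAGCE_Pioneiro. In the set of 5 it had 3.15, 4.07, 1.76, 3.04 and 2.85 CPM. All 3 libraries thus lay well above a tight set of 5, with 75.4 ± 57.9 CPM in the set of 3 and 2.97 ± 0.828 in the set of 5 (SD, n = 3 and n = 5). Its log2 fold change was 4.66 (SE 0.56), with an adjusted p of 0.0905 in edgeR and 3.01e-11 in DESeq2. Without BAGCE_5 the log2 fold change was 4.03 (SE 0.48).

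MSTRG.53931, with 3 transcripts of up to 1230 bases, had 22.5, 152 and 15.1 CPM in BAGCE_5, BAGCE_7 and BAGCE_Pioneiro, against 2.28 to 8.66 CPM in the set of 5. Here BAGCE_7 was the high library and the other members lay nearer to the set of 5. The log2 fold change was 3.57 (SE 0.79; edgeR adjusted p = 0.0942). It was 4.06 without BAGCE_5 and 1.91 without BAGCE_7, so its size rests on that library.

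MSTRG.17512, with 5 transcripts of up to 1805 bases, had 0.954, 4.68 and 8.86 CPM in BAGCE_5, BAGCE_7 and BAGCE_Pioneiro. In BAGCE_10 and BAGCE_96 it had 802 and 719 CPM, and in BAGCE_32, BAGCE_82 and BAGCE_98 it had 45.8, 21.5 and 33.7 CPM. The set of 5 was itself split at this locus, by more than the gap between the sets. The log2 fold change was -6.07 (SE 1.74; edgeR adjusted p = 0.123), and -5.43 (SE 1.96) without BAGCE_5.

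MSTRG.40057, with 2 transcripts of up to 832 bases, had 0.561, 2.40 and 4.03 CPM in BAGCE_5, BAGCE_7 and BAGCE_Pioneiro. In the set of 5 it had 5.29 CPM in BAGCE_10, barely above BAGCE_Pioneiro, and 33.2 to 309 CPM in the others. Its log2 fold change was -5.85 (SE 1.45; edgeR adjusted p = 0.104), and -5.27 (SE 1.64) without BAGCE_5. At both of these lower loci the 3 libraries stood in the same order, with BAGCE_5 lowest and BAGCE_Pioneiro highest. No function can be given to any of the 4 loci.

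**Figure D2:**
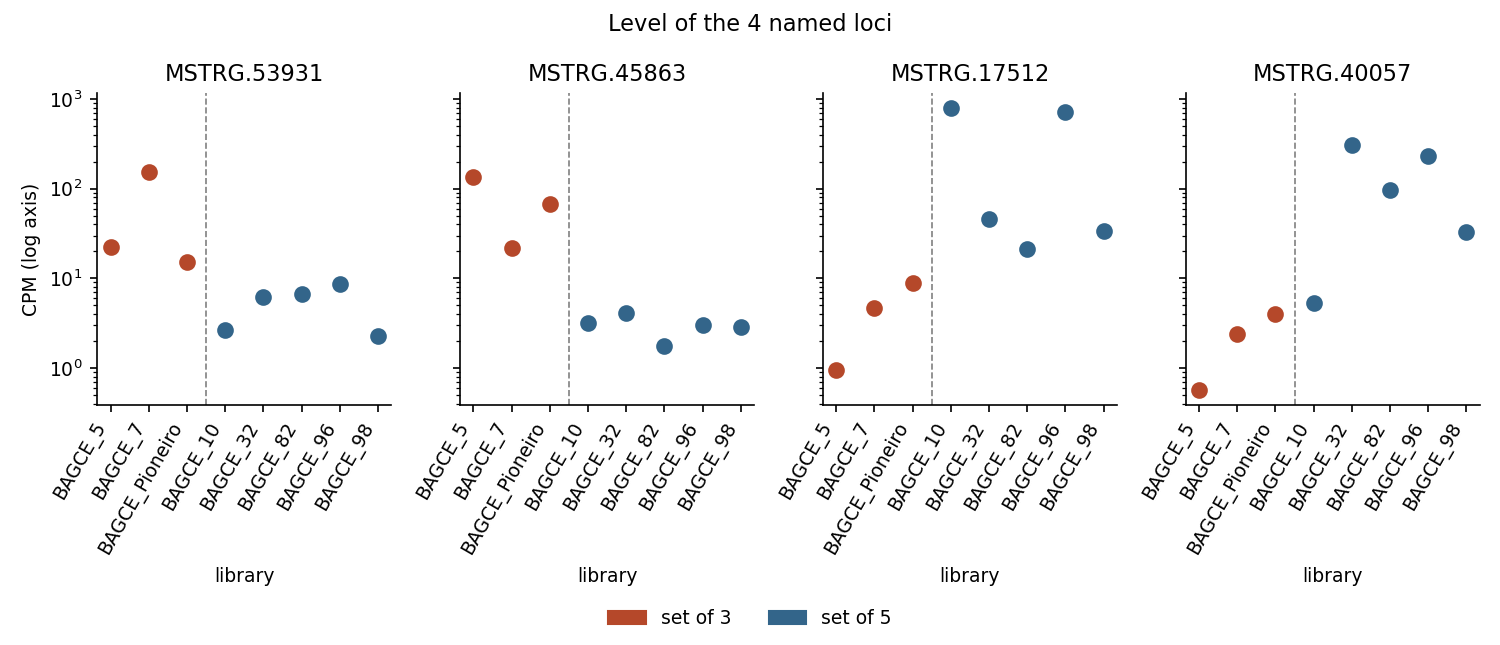
Level of the 4 named loci in each library, in CPM on a log axis, with the set of 3 left of the dashed line and the set of 5 right of it; each point is 1 library. At MSTRG.45863 the set of 5 lies between 1.76 and 4.07 CPM, whereas at MSTRG.17512 BAGCE_10 and BAGCE_96 lie far above the other libraries.

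BAGCE_5 was the most distant member, and loci on either side of the set of 5 were also found without it. Taken singly against the range of the set of 5, BAGCE_5 lay above it at 12538 loci (24.9%) and below it at 14616 (29.0%). BAGCE_7 lay above at 9590 (19.0%) and below at 10530 (20.9%), and BAGCE_Pioneiro above at 9309 (18.5%) and below at 10441 (20.7%). Each library of the set of 5 was also set against the other 4 of that set. It lay above them at 13.6% to 24.9% of loci and below them at 12.6% to 24.0%. BAGCE_10 in particular lay above the other 4 at 24.9% and below them at 24.0%. A range over 5 libraries is harder to leave than a range over 4, so these shares are not on equal terms. They do not tell whether BAGCE_7 and BAGCE_Pioneiro are unusual.

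Together, BAGCE_7 and BAGCE_Pioneiro lay above all of the set of 5 at 4037 loci and below all of it at 5375, or 18.7% of tested loci in all. These loci were picked by the levels of the other libraries, but BAGCE_5 took part in the filter and scaling over all 8. There BAGCE_5 also lay above the set of 5 at 3052 of the 4037 (75.6%) and below it at 4531 of the 5375 (84.3%). It lay on the opposite side at 184 (4.56%) and 158 (2.94%). Its median log2 CPM relative to the mean of the set of 5 was 1.39 at the higher loci, beside 1.28 in BAGCE_7 and 1.45 in BAGCE_Pioneiro. At the lower loci it was -1.97, beside -1.49 and -1.41. BAGCE_5 was used in drawing the sets, and the same 5 libraries chose the loci and give the zero point, so these shares are descriptive. Filtered and scaled again without BAGCE_5, BAGCE_7 and BAGCE_Pioneiro lay above all 5 at 5261 and below at 4685 of 53810 loci.

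**Figure D3:**
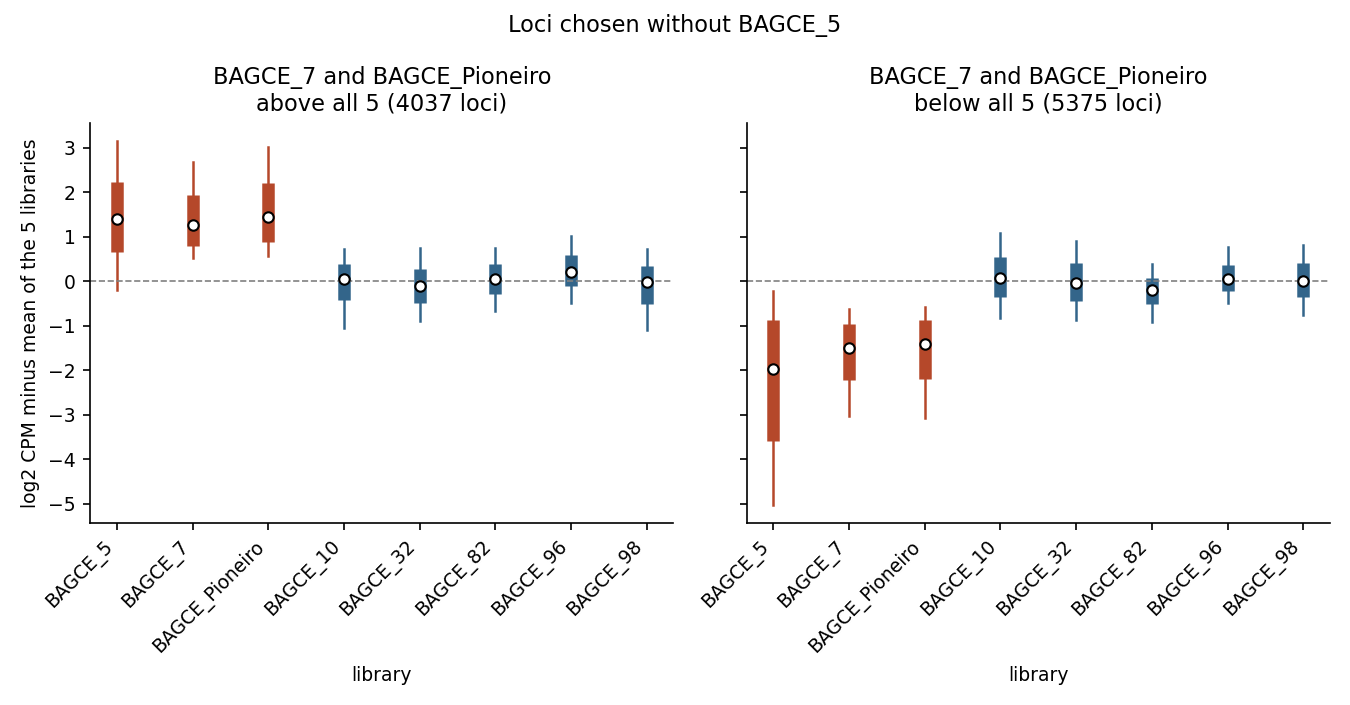
Log2 CPM of each library minus the mean of the set of 5, at the 4037 loci where BAGCE_7 and BAGCE_Pioneiro lie above all 5 (left) and the 5375 where they lie below (right); the circle is the median over loci, the thick bar runs from the 25 to the 75 percentile and the thin line from the 10 to the 90 percentile. The loci were not picked by the level of BAGCE_5, which shared in the filter and scaling. Its median is 1.39 at the left and -1.97 at the right.

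The other pairs carried more loci. The loci at which the remaining member joined are the same 7583 in each case, so their share is smaller where a pair carried more. BAGCE_5 and BAGCE_Pioneiro both lay outside the set of 5, on the same side, at 12850 loci, and BAGCE_7 joined them at 59.0%. BAGCE_5 and BAGCE_7 did so at 12326 loci, and BAGCE_Pioneiro joined them at 61.5%. The corresponding share for BAGCE_5 joining BAGCE_7 and BAGCE_Pioneiro was 80.6% of 9412. At the loci with sides apart, BAGCE_5 was the farthest of the 3 from the set of 5 at 56.9% of the higher and 71.8% of the lower loci. BAGCE_7 was the nearest at 51.8% of the higher loci, and BAGCE_Pioneiro at 46.7% of the lower ones. The median absolute log2 fold change of the 7583 loci was 1.78 with all libraries and 1.55 in the fit without BAGCE_5. In that fit 0 of 53810 loci had an edgeR adjusted p under 0.05, and 7146 (13.3%) an unadjusted p under 0.05. Of the 10301 loci with an unadjusted p under 0.05 with all libraries, 6020 kept it, with the same direction, without BAGCE_5.

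**Figure D4:**
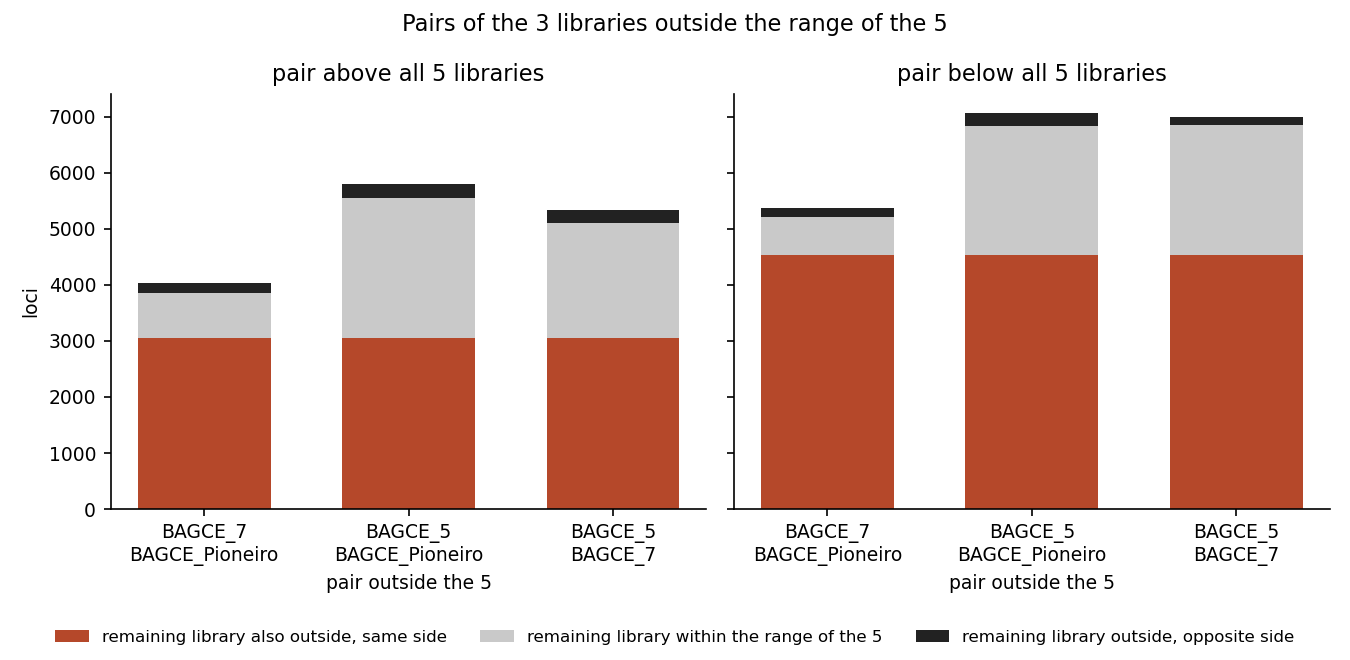
Number of tested loci at which 2 libraries of the set of 3 lie above (left) or below (right) all libraries of the set of 5, divided by where the remaining library lies. The part shared by the bars of a panel, 3052 loci at the left and 4531 at the right, is the same in each, and the grey part is smallest where BAGCE_5 is the remaining library.

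Among the 10 loci with the most reads, the sides were apart at 3, all of them lower in the set of 3, and overlapped at the other 7. Of all 50450 tested loci, 8.98% were lower with sides apart and 6.05% higher. Loci were ranked by their mean share of assigned reads, which is not a level per length. The locus ranked first, with 10 transcripts, took 1.58%, 4.17% and 3.41% of the reads in BAGCE_5, BAGCE_7 and BAGCE_Pioneiro. In the set of 5 it took 6.70% to 13.2%, with the highest share in BAGCE_96. The sets did not overlap, and the means were 3.05% in the set of 3 and 8.95% in the set of 5. The fitted log2 fold change was -1.68 (SE 0.56; edgeR adjusted p = 0.149). The locus ranked second, whose number follows directly, took 0.805%, 1.69% and 0.978% in BAGCE_5, BAGCE_7 and BAGCE_Pioneiro, against 2.39% to 4.17% in the set of 5. Together the 10 loci with the most reads took 4.31%, 9.17% and 6.74% in the set of 3 in the same order, against 11.2% to 19.0% in the set of 5. The first and second loci carried that sum. The 8 loci ranked 3 to 10 together took 1.93%, 3.32% and 2.35% in BAGCE_5, BAGCE_7 and BAGCE_Pioneiro, against 2.03% to 2.73% in the set of 5, so the sets overlapped, with BAGCE_7 the highest library. Of the 7 loci whose sides overlapped, 4 had a positive and 3 a negative log2 fold change. The locus ranked 10 was lower in the set of 3, at 0.0850% to 0.176% in the set of 3 and 0.245% to 0.363% in the set of 5.

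**Figure D5:**
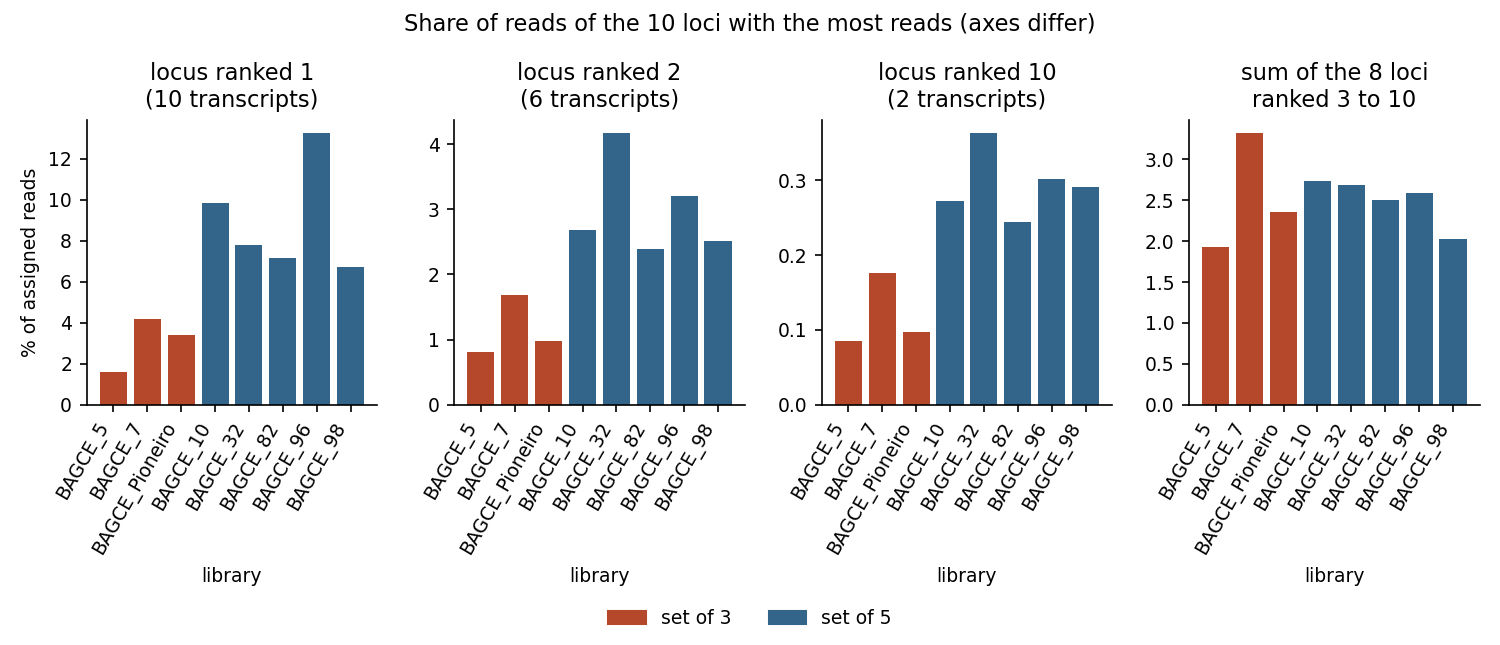
Share of assigned reads, in percent, taken in each library by the loci ranked 1, 2 and 10 by mean share of reads, the 3 of the first 10 with sides apart, and by the sum of those ranked 3 to 10 (right); bars are single libraries, the set of 3 at the left of each panel, and each panel has its own axis from 0. In the panels of single loci all bars of the set of 3 are lower than the lowest of the set of 5, which is 6.70% in the first panel, whereas in the summed panel the sets overlap.

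Of the 50 loci with the most reads, 6 were higher in the set of 3 and 8 lower with no overlap, and 36 overlapped. These are counts of 50 and not percentages. Over all 50450 tested loci, 3052 (6.05%) were higher and 4531 (8.98%) lower. Loci with consecutive numbers may share reads, so they are not separate counts for certain. The locus ranked 21, with 6 transcripts, took 0.189%, 0.0930% and 0.614% of the reads in BAGCE_5, BAGCE_7 and BAGCE_Pioneiro, against 0.0187% to 0.0726% in the set of 5. Its log2 fold change was 2.61 (SE 0.69; edgeR adjusted p = 0.111), and BAGCE_Pioneiro was far the highest library. The locus ranked 27, with 3 transcripts, took 0.0028%, 0.0187% and 0.0263% in the same libraries, against 0.132% to 0.292% in the set of 5. Its log2 fold change was -3.68 (SE 0.75; edgeR adjusted p = 0.0923), with BAGCE_5 the lowest. These loci of the ranking were picked after their values were seen. Summed over all loci with sides apart, the 3052 higher loci took 14.98%, 8.64% and 14.3% of the reads in BAGCE_5, BAGCE_7 and BAGCE_Pioneiro, against 3.28% to 4.45% in the set of 5. The 4531 lower loci took 4.85%, 9.31% and 8.62%, against 19.0% to 26.3%. The direction of both sums follows from how these loci were chosen, and the choice also raises the size of the differences. BAGCE_7 was the member nearest to the set of 5 in both sums.

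Separation was found at every level of abundance. With the tested loci put into 5 equal classes of mean log2 CPM, 10.99% had sides apart in the lowest class, and 13.6%, 16.3%, 17.3% and 17.0% in the following classes. The median absolute log2 fold change of all loci went the other way, 0.81 in the lowest class and 0.59 in the highest.

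The number of assembled transcripts of a locus, which the rank correlations did not use, went with direction. Of 32766 tested loci with 1 transcript, 5.46% were higher in the set of 3 and 10.2% lower. Of 15803 loci with 2 to 4 transcripts, 6.93% were higher and 6.999% lower. Of 1881 loci with 5 or more, 8.88% were higher and 4.09% lower. Among loci with sides apart, the share that was higher in the set of 3 was thus 34.8%, 49.8% and 68.4% with rising transcript number. With BAGCE_82 as the scaling library these shares were 43.5%, 59.5% and 77.9%, under RLE scaling 38.0%, 53.9% and 72.4%, and without BAGCE_5 38.2%, 50.99% and 66.1% with the loci and scaling kept, or 48.1%, 61.2% and 77.3% refitted. The order was the same in each, although the balance within a class moved. Loci with 2 or more transcripts were 1183 of the 10090 loci in the lowest class of abundance and 5973 of those in the highest, so shares were also taken within classes. In each class the share of loci lower in the set of 3 was smaller for loci with 2 or more transcripts than for those with 1, at 4.31% and 7.22% in the lowest class and 6.85% and 11.5% in the highest. The share of higher loci followed no such order: it was smaller for loci with 2 or more transcripts in the 3 lowest classes, at 3.30% and 4.22%, 3.66% and 4.68%, and 6.05% and 6.26%. It was larger in the 2 highest classes, at 7.66% and 7.01%, and 9.53% and 6.29%. Whether reads that fit several transcripts of a locus were counted once or for each is not stated in the files, and its part in the result was not tested.

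Locus length, also unused by the correlations, varied as follows. The median of the longest transcript was 1644 bases at the higher loci, 1420 at the lower loci and 1429 over all tested loci. Of 2810 loci under 500 bases, 4.06% were higher and 5.44% lower in the set of 3. Of 11059 loci of 500 to under 1000 bases, 4.32% were higher and 9.66% lower, and of 23210 loci of 1000 to under 2000 bases, 6.06% were higher and 9.38% lower. Of 13371 loci of 2000 bases or more, 7.88% were higher and 8.47% lower, so the share of lower loci did not go up steadily with length.

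Loci with consecutive numbers more often shared a direction than loci farther apart. Where the first of a consecutive pair of tested loci was higher in the set of 3, the next was also higher in 290 of 2407 pairs (12.0%), beside 6.05% of all tested loci. For the lower loci it was 491 of 3616 (13.6%), beside 8.98%. At 2 to 5 numbers apart the shares were 7.29% and 9.80%, and at 11 to 50 numbers they were 6.31% and 9.41%, near the background. The files do not state that locus numbers follow the genome, and neighbouring loci may be pieces of 1 gene or share reads.

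Presence on 1 side and absence from the other was rare. With at least 10 reads in every library of a set and none in any of the other, 3 loci were present only in the set of 3 and 7 only in the set of 5, which together is 0.0149% of all 66981 loci. The 3 loci of the set of 3 had 1 transcript each, of 275 to 853 bases, and few reads: 11 to 35 in the 3 libraries. The 7 loci of the set of 5 had 10 to 134 reads and a median longest transcript of 1748 bases. The locus with the most reads among them had 18, 128, 28, 134 and 112 reads in BAGCE_10, BAGCE_32, BAGCE_82, BAGCE_96 and BAGCE_98, and none in the set of 3. None of these loci lay within 5 numbers of another of its kind. Without BAGCE_5 the counts were 13 and 12, and the total ran from 17 to 74 with any 1 library left out, as a criterion over fewer libraries is met more easily. In the tested loci generally, 139 had no read in any library of the set of 3 and 3 had none in any of the set of 5. A locus is more easily at 0 in 3 libraries than in 5, and the filter passed such loci unequally, so these numbers are not comparable between the sets.

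The choice of transcript within a locus followed the sets hardly at all. Among 7140 loci with 2 or more transcripts, at least 20 reads in every library and no tie for the most reads, 4815 (67.4%) had the same leading transcript in all 8 libraries. Only 6 (0.0840%) had 1 leading transcript throughout the set of 3 and another throughout the set of 5, and 19 did without BAGCE_5. None of the 6 had sides apart in the summed level. The clearest, of 3 transcripts, gave 53.9%, 42.6% and 59.8% of its reads to the transcript leading in the set of 3 in BAGCE_5, BAGCE_7 and BAGCE_Pioneiro. That transcript took 20.3% to 36.8% in the set of 5, and the locus had 79 to 197 reads in a library. A further 4597 loci were left out for ties, and reads may be shared between transcripts.

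The same loci were read within each lignin label. Between the high lignin libraries, BAGCE_5 and BAGCE_Pioneiro against BAGCE_10 and BAGCE_82, the median difference in log2 CPM was 1.58 at the 3052 higher loci and -1.95 at the 4531 lower loci. Between the low lignin libraries, BAGCE_7 against BAGCE_32, BAGCE_96 and BAGCE_98, it was 1.26 and -1.59. The direction is fixed by how these loci were chosen, and the choice also raises the sizes. These values therefore do not show that a difference holds within each label. With the lignin label as a covariate in the edgeR fit, the median log2 fold changes were 1.5 and -1.95, and 0 loci had an adjusted p under 0.05, with 7809 at an unadjusted p under 0.05. The most similar pair of the set of 3, BAGCE_7 and BAGCE_Pioneiro, carries different lignin labels.

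A pair of library measures that the rank correlations did not use was tested. Assigned reads averaged 17425518 ± 540437 in the set of 3 and 16299247 ± 1175369 in the set of 5 (SD, n = 3 and n = 5). An exact permutation test, two-sided, gave p = 0.179 for this difference, or 0.357 adjusted over the 2 measures. Transcript length minus effective length, which reflects fragment length, averaged 102.81 ± 0.839 bases in the set of 3 and 103.10 ± 0.426 bases in the set of 5 (SD, n = 3 and n = 5), with p = 0.500 in the same exact test before and after adjustment. It was 102.34, 103.78 and 102.31 bases in BAGCE_5, BAGCE_7 and BAGCE_Pioneiro, so the set of 3 held both the highest and the lowest value of the 8 libraries. The smallest p that 3 libraries against 5 can give in this test is 0.0357, before adjustment. After adjustment over the 2 measures, 1 measure alone could not fall under 0.05, even with the sets fully apart. Neither difference passed its test, which therefore tells little, and the range of each measure overlapped between the sets.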

How the data were processed

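RNA-seq of young stem was used from 8 entries, 1 library each. Per the labels' protocols, TRIzol RNA of samples kept in RNAlater went into stranded mRNA libraries for an Illumina HiSeq. The submitters' processing notes name Salmon 0.7.2, StringTie 2.0.4, STAR 2.5.2b and FastQC 0.11.8 without their roles. Genome build and annotation: not given in the sources used here. Per the file headers, the authors deposited for 101169 transcripts the length and effective length in bases (other, not abundance), TPM values, which were not used, and estimated counts. Within 0.001 reads, 99.974% of these deposited estimated counts were whole. Counts were summed per locus (the identifier without its last number) and rounded.

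The members and tests were chosen with earlier results of these data known, and the sets were seen in the rank correlations, so p-values are descriptive. The fit was edgeR 4.0.16 (R 4.3.3): quasi-likelihood F-test, robust, TMM, filterByExpr, set as the only term, Benjamini-Hochberg adjusted p under 0.05. SE is the log2 fold change over the square root of F. Log2 CPM used a prior count of 2. Sides do not overlap where every library of 1 set exceeds every library of the other in CPM. Alternatives were RLE and upper-quartile scaling, no filter, 1 CPM in 3 libraries, single transcripts, the most abundant transcript of each locus, DESeq2 1.42.0, limma-voom (limma 3.58.1), lignin as a covariate and each library left out. TMM with BAGCE_82 as the scaling library, and leaving out a library with the loci and scaling kept, were chosen after seeing the data. Library measures were compared by exact permutation (scipy 1.17.1). The fit was tested on simulated data. Named loci, at most 2 in each direction because no names are given, had at least 10 reads in all libraries, log2 CPM of at least 2, sides apart, BAGCE_5 not the nearest member, and the largest log2 fold change without BAGCE_5, over 10 locus numbers apart. No gene list was matched. Depth limits precision at low counts: 1 read is worth little against the 14925391 to 17997520 assigned.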

Additional observations from a re-analysis of the deposited data

Results flagged for a closer look

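Among 23 groups of 5 values of the set of 5, a single library lay far from the others. The median transcript length minus effective length was 102.344 bases in BAGCE_96, while the other libraries of the set of 5 had 103.213 to 103.372 bases. Its gap to the nearest library, as a share of the range, exceeded Dixon's 95% limit of 0.71. Chance marks about 1 in 20 such groups. BAGCE_5 and BAGCE_Pioneiro had nearly the same value as BAGCE_96, 102.342 and 102.310 bases, so this measure crossed the line between the sets.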

How the results depend on the processing

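No paired analysis was possible because the labels carry no replicate number or other mark that pairs libraries across the sets. The count of loci past an edgeR adjusted p of 0.05 was 0 in limma-voom, with no filter, with the filter of 1 CPM, under either RLE or upper-quartile scaling, for single transcripts, the most abundant transcript, the lignin covariate and BAGCE_82 as scaling library. It was 6377 in DESeq2, and with 1 library left out it ran from 0 to 1, the call coming without BAGCE_Pioneiro. The cause was not tested. Loci with sides apart numbered 7016 with the filter of 1 CPM to 8512 without a filter, and 11700 among single transcripts, where the unit counted differs. With 1 library left out they ran from 8533 to 13640 (12805 without BAGCE_Pioneiro, 13640 without BAGCE_7), and from 8712 to 12850 with the loci and scaling kept (12326 without BAGCE_Pioneiro, 12850 without BAGCE_7), as fewer libraries overlap less. Loci present in 1 set and absent from the other numbered 30 with a minimum of 5 reads, 5 with the most abundant transcript of each locus, and 17 to 74 with 1 library left out, where fewer libraries again ease the criterion. The excess of rank correlation within the set of 3 over the pairs between the sets, 0.0772, was 0.0508 without a filter and 0.0999 at loci with a single transcript, and 0.0652 to 0.0887 with 1 library left out. That of the set of 5 ran from 0.0301 to 0.0863 with 1 library left out. The median absolute log2 fold change was 0.63 to 0.82 with 1 library left out and within that range in the other alternatives run for it. The difference in assigned reads, set of 3 minus set of 5, ran from 782808 to 1512578, and that in length minus effective length from -0.770 to -0.0356 bases, with 1 library left out. The 4 named loci kept their direction in all 56 refits, which their choice makes likely, and passed the threshold in DESeq2 only.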
